A study of Mus musculus with 2 samples.

Results

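Claudins and cadherins are the adhesion proteins that tie neighbouring epithelial cells together, and their transcripts were followed here in mouse embryonic stem cells with and without Adriamycin. Members were all genes named Cldn or Cdh followed by a number, together with Ocln, Epcam, Jup, Ctnnd1, Ctnna1, Snai1, Snai2, Zeb1 and Zeb2. Symbols were matched by Ensembl identifier, and the rule found 55 of the 55414 genes in the tables, namely 23 claudins, 23 cadherins and 9 other members. The cells were of the line R1E, labelled wild type, and both groups grew in medium with 15% fetal bovine serum and leukemia inhibitory factor (LIF) at 1000 U/mL. The Adriamycin group had 0.5 µM of the drug, a topoisomerase II poison also called doxorubicin, for 8 h and consisted of 1 library. The untreated group, labelled 0 h, also consisted of 1 library. With 1 library per condition no test was possible, and treatment cannot be told apart from differences between cultures, preparations or times.

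Claudins are tetraspan proteins that form the strands of tight junctions, where each family member sets whether the space between cells is sealed or lets particular ions pass. Classical cadherins bind each other across adherens junctions through calcium-dependent outer domains, and their tails hold catenins that connect to actin. E-cadherin, the product of Cdh1, is the main cadherin of mouse embryonic stem cells, which form compact epithelium-like colonies. Snail and Zeb proteins are transcription factors known to bind E-box sequences and to repress Cdh1 and other epithelial genes.

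The deposited values are read counts per gene, with 38561292 reads in the Adriamycin library and 41820999 in the untreated library. Members held 75081 reads (0.195%) in the Adriamycin library and 88056 reads (0.211%) in the untreated library. Differences are log2 ratios of Adriamycin over untreated after TMM scaling of library sizes, and the interval in parentheses after a ratio is its 95% counting interval. These intervals cover counting error only, and reads of a pair and PCR copies are not independent molecules, so they are too narrow. Levels of different genes are compared in TPM, which divides reads by exon length. All 11 markers listed for embryonic stem cells had reads and 6 were at least 2-fold lower. Among all measured genes, as defined below, 17.0% were at least 2-fold higher and 6.95% lower, which is the background of each marker list. The embryonic stem cell markers summed to 11025 TPM in the Adriamycin library and 15373 TPM in the untreated library. Nanog had 7436 reads in the Adriamycin library and 23059 in the untreated library. The p53 targets Mdm2 (log2 ratio 2.84) and Cdkn1a (1.63) were higher in the Adriamycin library. The fibroblast list had 4 of 10 markers at 0 reads in both libraries (Col3a1, Dcn, Lum and Postn) and summed to 89.2 TPM in the Adriamycin library and 38.7 TPM in the untreated library. Of its 6 measured genes 2 were at least 2-fold higher, namely Col1a1, with 1295 reads in the Adriamycin library and 214 in the untreated library, and Fbln2, with 2177 reads in the Adriamycin library and 247 in the untreated library. Trophoblast markers summed to 173 TPM in the Adriamycin library and 151 TPM in the untreated library, and within that list Krt7 was 9.85-fold higher and Eomes 5.20-fold lower. Primitive endoderm markers, with 0 of 8 called in either direction, summed to 225 TPM in the Adriamycin library and 210 TPM in the untreated library. In bulk RNA, fewer cells of a type and less RNA per cell cannot be told apart.

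A mean of at least 1 CPM (reads scaled to library size) over both libraries was needed for a gene to be called measured, and 30 members reached it. They were 10 claudins, 11 cadherins and all 9 other members. At a ratio of at least 2-fold, 7 of the 30 were higher in the Adriamycin library, against 17.0% of the 14871 measured genes of the whole table, and 3 were lower, against 6.95%. Among the claudins 4 were higher (Cldn4, Cldn15, Cldn18 and Cldn19) and 1 was lower (Cldn3). Among the cadherins 3 were higher (Cdh3, Cdh15 and Cdh26) and 0 were lower, and among the other members 0 were higher and 2 were lower (Epcam and Zeb2). The median log2 ratio was 0.94 for claudins, 0.71 for cadherins and -0.57 for the other members, beside -0.03 for all measured genes. At a mean of at least 5 CPM the claudin median was -0.31, and with every gene of at least 1 read the cadherin median was 0.15. Of the 7 higher members 5 lay at 1 to 5 CPM, where 31.8% of all measured genes were higher, against 5 of 13 members. In the same band 1 member, Zeb2, was lower, against 9.51% of all genes. Cdh5, Cdh15, Cdh22, Cdh26, Cldn15 and Cldn18 were under 1 CPM in the untreated library and reached the mean only through the Adriamycin library. Zeb2 reached it only through the untreated library. The direction of these genes is therefore partly set by the filter, and they enter the counts and medians above. Cdh5 and Cdh22, both within 2-fold, add to the cadherin median but not to the calls. At 5 CPM and above, 2 of 17 members were higher and 2 were lower, while 12.5% of all genes in that band were higher and 6.16% lower. At 100 CPM and above, 1 of 5 members was higher (Cldn4), against 7.02% of all genes, and 1 was lower (Epcam), against 8.89%. The members' shares of 23.3% higher and 10.0% lower thus stood beside a background that itself depends on level, and nothing is read from them about the families as a whole.

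**Figure D1:**
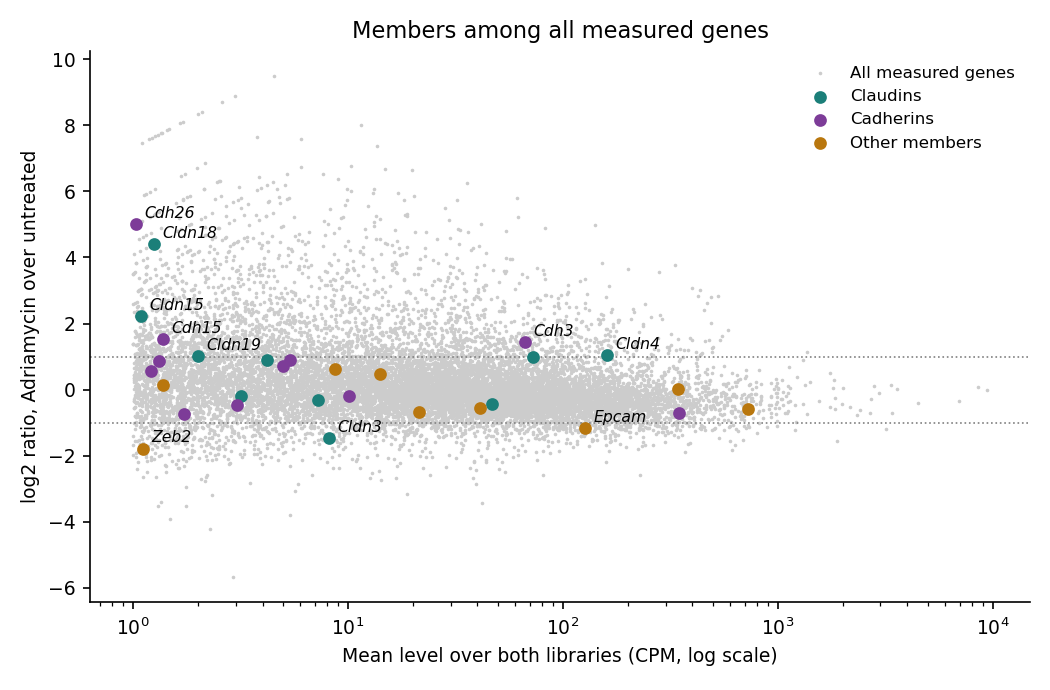
Each point is 1 measured gene, with its mean level over both libraries in CPM on a log axis and its log2 ratio of Adriamycin over untreated on the vertical axis; dotted lines mark 2-fold. Grey points are all 14871 measured genes and coloured points the 30 measured members, of which the 10 past 2-fold are named, 6 of them at 1 to 5 CPM.

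E-cadherin and P-cadherin lie next to each other on chromosome 8 and had log2 ratios of opposite sign. Cdh1 (ENSMUSG00000000303, GRCm39 chromosome 8, 107329983 to 107396878, plus strand) had 10627 reads in the Adriamycin library and 17112 in the untreated library. Its log2 ratio of -0.72 (-0.75 to -0.68) was short of 2-fold. Cdh3, which encodes P-cadherin, a classical cadherin of basal epithelial layers and placenta (ENSMUSG00000061048, chromosome 8, 107237523 to 107283929, plus strand), had 3961 reads in the Adriamycin library and 1425 in the untreated library. It was 2.73-fold higher, with a log2 ratio of 1.45 (1.36 to 1.54). The genes are 46.1 kb apart on the same strand, and the measured gene between them, Gm10073, had a log2 ratio of -0.77. Set against each other within a library, which needs no scaling, the TPM of Cdh3 was 0.389 of that of Cdh1 in the Adriamycin library and 0.0869 in the untreated library. That ratio was 4.48 times as large in the Adriamycin library, with a counting interval of 4.19 to 4.78, and of 4.08 to 4.92 on counts divided by 2.

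The cadherin transcripts as a family were mostly those of Cdh1 and Cdh3 in both libraries. Cdh1 made up 66.4% of the summed cadherin TPM in the Adriamycin library and 87.3% in the untreated library. Cdh3 made up 25.8% in the Adriamycin library and 7.59% in the untreated library. Together the 2 genes held 92.2% of it in the Adriamycin library and 94.9% in the untreated library, and the other 21 cadherins held the rest. Summed over the family, the level was 331 TPM in the Adriamycin library and 383 TPM in the untreated library.

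**Figure D2:**
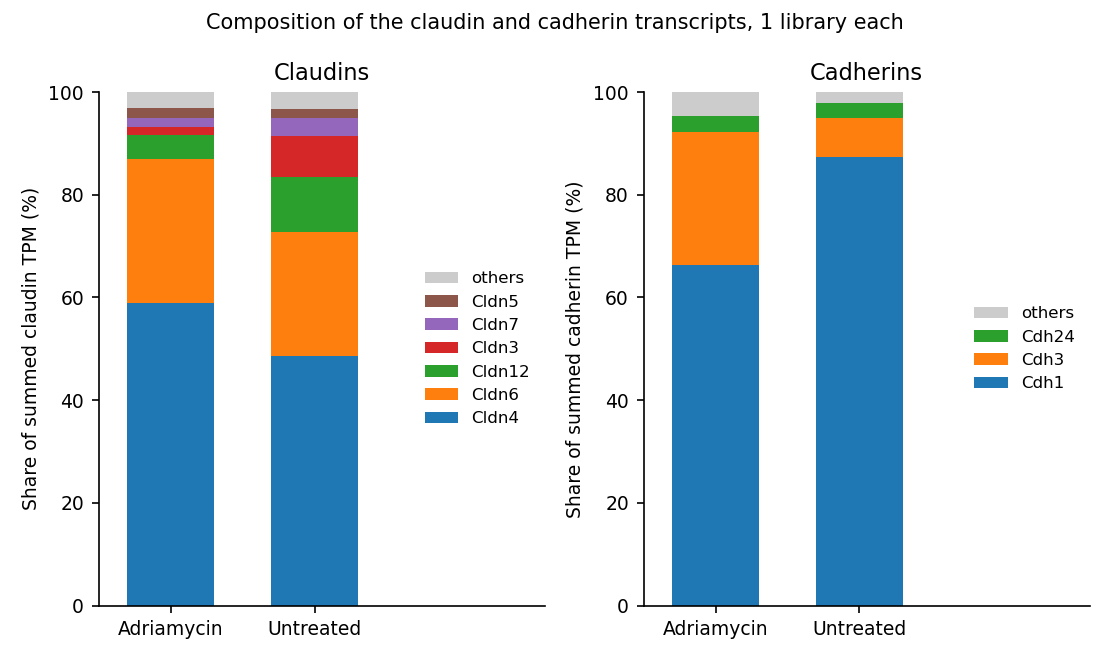
Stacked bars give each gene's share of the summed TPM of its family, claudins on the left and cadherins on the right, in the Adriamycin and the untreated library (1 library each). Cdh3 takes 25.8% of cadherin TPM in the Adriamycin bar and 7.59% in the untreated bar, and Cldn4 takes 58.9% of claudin TPM in the Adriamycin bar and 48.6% in the untreated bar.

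The remaining 9 measured cadherins had low levels, and the 2 at least 2-fold higher were among those with few reads. Cdh26, a cadherin first described in epithelia, had 82 reads in the Adriamycin library and 2 in the untreated library, a log2 ratio of 5.02 (3.43 to 8.40) that rests on those 2 reads. Cdh15, the muscle cadherin M-cadherin, had 83 reads in the Adriamycin library and 28 in the untreated library (log2 ratio 1.52, 0.91 to 2.21). Cdh23, whose product forms the tip links of inner ear hair cells, had 283 reads in the Adriamycin library and 148 in the untreated library, a log2 ratio of 0.91 (0.62 to 1.20). Cdh22, a type II cadherin known from the brain, had 69 reads in the Adriamycin library and 37 in the untreated library (0.86, 0.27 to 1.49). Cdh4, retinal cadherin, had 252 reads in the Adriamycin library and 151 in the untreated library (0.71, 0.41 to 1.01). These 3 were short of 2-fold, though Cdh22 and Cdh23 passed it with total counts in place of TMM, at log2 ratios of 1.01 and 1.05.

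N-cadherin, the cadherin associated with mesenchymal and neural cells, was scarce in both libraries. Its gene Cdh2 had 104 reads and 1.22 TPM in the Adriamycin library, against 140 reads and 1.55 TPM in the untreated library, a log2 ratio of -0.45 (-0.84 to -0.08). Markers listed for neural cells summed to 156 TPM in the Adriamycin library and 278 TPM in the untreated library. Of the 5 measured, 0 were at least 2-fold higher and 1 was lower, beside 17.0% higher and 6.95% lower among all measured genes. The part of such cells in the reads of Cdh2 was not tested. Cdh6, kidney cadherin, had 52 reads in the Adriamycin library and 86 in the untreated library (-0.75, -1.28 to -0.24). Cdh24, a type II cadherin that binds catenins, was the third most abundant cadherin, with 10.4 TPM in the Adriamycin library and 11.1 TPM in the untreated library (log2 ratio -0.21, -0.41 to -0.01). Cdh5, the VE-cadherin of blood vessel walls, had 59 reads in the Adriamycin library and 39 in the untreated library (0.56, -0.04 to 1.19), an interval that includes no difference. Of the 6 endothelial markers listed, Tek was 4.70-fold higher, Esam was 2.31-fold lower, Emcn had 0 reads in both libraries and the others were within 2-fold. These calls stand beside the same shares of 17.0% and 6.95%. The 6 markers summed to 94.8 TPM in the Adriamycin library and 72.1 TPM in the untreated library. The part of such cells in the reads of Cdh5 was not tested.

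Claudin transcripts were dominated by Cldn4 and Cldn6, and both were about 2-fold more abundant in the Adriamycin library. Cldn4, a sealing claudin and receptor of a Clostridium perfringens toxin (ENSMUSG00000047501, chromosome 5, 134973973 to 134975788, minus strand), had 8715 reads in the Adriamycin library and 4148 in the untreated library. Its log2 ratio of 1.04 (0.99 to 1.10) lay at the limit of the 2-fold rule and was 0.92 with upper-quartile factors. Cldn6, a claudin of embryonic epithelia and pluripotent cells (ENSMUSG00000023906, chromosome 17, 23898223 to 23901420, plus strand), had 3917 reads in the Adriamycin library and 1945 in the untreated library. Its log2 ratio of 0.98 (0.90 to 1.06) fell just short of the rule, and was 1.13 with total counts. The 2 genes held 86.9% of the summed claudin TPM in the Adriamycin library and 72.7% in the untreated library. Summed over all claudins, the level was 770 TPM in the Adriamycin library and 420 TPM in the untreated library. Cldn4 had the highest level of any member in the Adriamycin library, at 454 TPM, and stood at rank 4 in the untreated library, at 204 TPM.

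Cldn3, a sealing claudin that shares the toxin receptor role of Cldn4 and lies 39.3 kb from it on the opposite strand, was 2.76-fold lower. It had 176 reads in the Adriamycin library and 478 in the untreated library (ENSMUSG00000070473, chromosome 5, 135015068 to 135016326, plus strand), a log2 ratio of -1.47 (-1.73 to -1.22). Its share of claudin TPM was 1.72% in the Adriamycin library and 8.08% in the untreated library. The TPM of Cldn4 was 34.3 times that of Cldn3 in the Adriamycin library and 6.02 times in the untreated library. This ratio differed 5.71-fold between the libraries, with an interval of 4.77 to 6.85, and of 4.42 to 7.41 on counts divided by 2.

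The third pair of measured neighbours was Cldn6 and Cldn9, which end 137 bases apart on opposite strands. Cldn9, a claudin known from the inner ear, had 120 reads in the Adriamycin library and 134 in the untreated library, a log2 ratio of -0.19 (-0.55 to 0.18). The TPM of Cldn6 was 27.4 times that of Cldn9 in the Adriamycin library and 12.2 times in the untreated library, a 2.25-fold difference with an interval of 1.73 to 2.92. Counting did not use strand, so reads of either gene that run past its end cannot be told apart from reads of its neighbour. Within 300 kb of the middle of each pair, the other measured genes had median log2 ratios of -0.29 around Cdh3 and Cdh1 (5 genes), 0.10 around Cldn4 and Cldn3 (14 genes) and 0.42 around Cldn6 and Cldn9 (18 genes). At least 2-fold higher were 1 of the 5, 4 of the 14 and 2 of the 18, beside 17.0% of all measured genes, and 1 gene was lower, Paqr4 (-1.16) near Cldn6 and Cldn9.

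**Figure D3:**
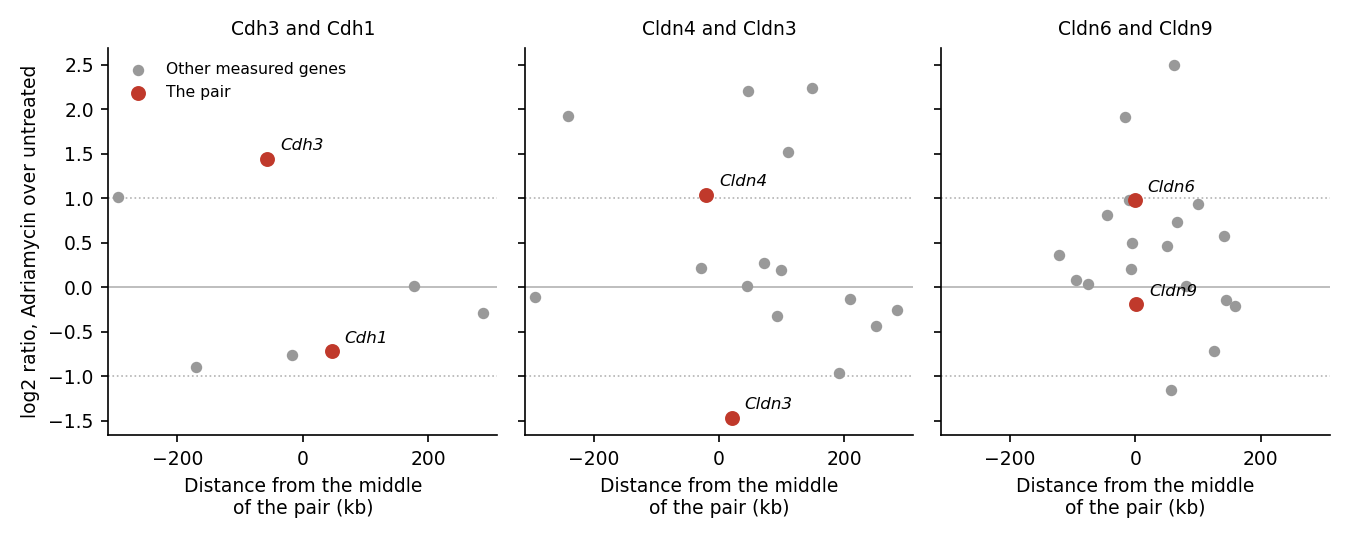
Log2 ratios of Adriamycin over untreated for measured genes, by the distance in kb of each gene's centre from the middle of 3 pairs of neighbouring members; red points are the pair, grey points other genes, and dotted lines mark 2-fold. The pair members sit apart in each panel, with Cdh3 at 1.45 and Cdh1 at -0.72, Cldn4 at 1.04 and Cldn3 at -1.47, and Cldn6 at 0.98 and Cldn9 at -0.19.

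The promoter windows of these claudins and of Epcam are shown because E-boxes of the form CAGGTG are the sites that Snail and Zeb proteins are known to bind. The 4 windows were chosen among the 9 members whose windows hold that sequence, the others being Cdh7, Cldn7, Cldn14, Ocln and Snai1. No window was available for some members, Cdh1 and Cdh3 among them, so their promoters were not searched. Each runs from 250 bases before to 50 bases after the annotated start, read 5′ to 3′ on the strand of the gene, from RefSeq on GRCm38.p6, a build other than that of the count tables. Capitals mark CAGGTG, or CACCTG where it lies on the opposite strand.
Cldn4 (chr5:134946885-134947184, - strand): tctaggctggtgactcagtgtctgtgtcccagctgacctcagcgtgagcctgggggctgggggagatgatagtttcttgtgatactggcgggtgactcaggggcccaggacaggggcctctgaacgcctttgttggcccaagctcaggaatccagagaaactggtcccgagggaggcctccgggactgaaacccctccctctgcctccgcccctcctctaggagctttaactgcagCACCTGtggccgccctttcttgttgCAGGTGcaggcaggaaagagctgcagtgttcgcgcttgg
Cldn3 (chr5:134985964-134986263, + strand): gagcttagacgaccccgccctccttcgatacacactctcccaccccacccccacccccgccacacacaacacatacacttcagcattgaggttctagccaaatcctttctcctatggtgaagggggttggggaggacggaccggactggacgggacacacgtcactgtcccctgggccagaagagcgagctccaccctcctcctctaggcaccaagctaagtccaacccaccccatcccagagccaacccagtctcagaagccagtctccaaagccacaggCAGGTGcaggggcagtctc
Cldn6 (chr17:23679115-23679414, + strand): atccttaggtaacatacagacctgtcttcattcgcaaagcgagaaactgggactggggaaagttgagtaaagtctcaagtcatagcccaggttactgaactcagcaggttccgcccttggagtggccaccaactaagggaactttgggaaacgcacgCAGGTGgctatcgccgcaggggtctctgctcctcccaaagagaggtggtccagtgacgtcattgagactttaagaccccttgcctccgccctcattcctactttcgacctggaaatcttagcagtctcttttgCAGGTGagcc
Epcam (chr17:87635729-87636028, + strand): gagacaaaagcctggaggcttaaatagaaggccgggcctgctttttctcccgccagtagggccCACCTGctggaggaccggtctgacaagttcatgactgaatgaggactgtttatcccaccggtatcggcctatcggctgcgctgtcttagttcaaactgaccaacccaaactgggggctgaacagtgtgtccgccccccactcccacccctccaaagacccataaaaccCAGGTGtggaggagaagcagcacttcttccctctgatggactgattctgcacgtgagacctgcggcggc

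The copies begin 14 bases before and 12 bases into the transcript for Cldn4, at base 32 of the transcript for Cldn3, 93 bases before and at base 41 for Cldn6, and 187 and 19 bases before the start for Epcam. These genes were on both sides of the comparison, since Cldn4 and Cldn6 had positive and Cldn3 and Epcam negative log2 ratios. RefSeq windows were matched for 38 of the 55 members, 53 windows in all, and 12 of them (22.6%) held CAGGTG on either strand, beside 20.2% of all 32851 windows. The GC box GGGCGG stood on either strand in 25 member windows (47.2%) and in 35.7% of all windows, and the consensus decamer of p53 in 5 (9.43%) and 8.36%. The p53 decamer was found in windows of Cldn5, Cldn16, Cldn18 and Zeb2. A match says only that the letters are present.

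Other claudins had fewer reads, and the 3 others at least 2-fold higher had at most 53 reads in the untreated library. Cldn18, a claudin of lung and stomach, had 97 reads in the Adriamycin library and 4 in the untreated library, a log2 ratio of 4.41 (3.17 to 6.48). Cldn15, which forms cation channels in the gut, had 73 reads in the Adriamycin library and 15 in the untreated library (2.22, 1.44 to 3.16). Cldn19, a claudin of kidney and peripheral nerve, had 109 reads in the Adriamycin library and 53 in the untreated library (1.01, 0.53 to 1.51), and it was under 2-fold with upper-quartile factors (0.88) or a pseudocount of 2 reads (0.99). These 3 genes had levels of 2.06, 3.25 and 2.42 TPM in the Adriamycin library, against 0.0803, 0.632 and 1.11 TPM in the untreated library, far below those of Cldn4 and Cldn6.

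The other claudins within 2-fold, beside Cldn6 and Cldn9, were Cldn12, Cldn7 and Cldn5. Cldn12, which lacks the usual PDZ-binding tail, had 1601 reads in the Adriamycin library and 2131 in the untreated library (log2 ratio -0.44, -0.53 to -0.35). Cldn7, the basolateral claudin that binds EpCAM, had 262 reads in the Adriamycin library and 318 in the untreated library (-0.31, -0.55 to -0.07). Cldn5, the main claudin of the blood-brain barrier, had 221 reads in the Adriamycin library and 116 in the untreated library (0.90, 0.57 to 1.24), and passed 2-fold with total counts (1.04).

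**Figure D4:**
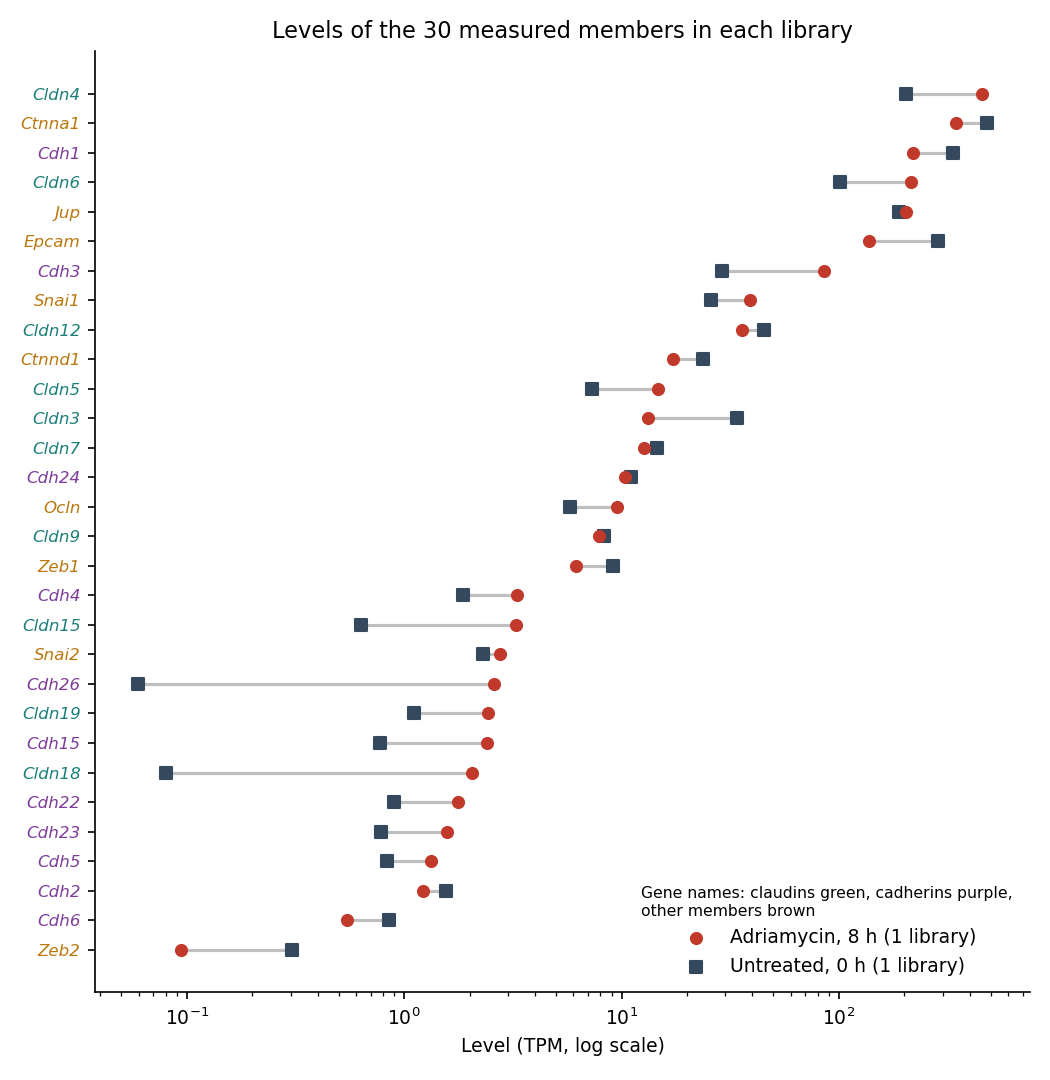
Levels of the 30 measured members in TPM on a log axis, Adriamycin as red circles and untreated as dark squares, 1 library each, ordered by the Adriamycin level. Cldn4 leads in the Adriamycin library at 454 TPM and Ctnna1 in the untreated library at 482 TPM, and Cdh26 and Cldn18 show the widest gaps at untreated levels under 0.1 TPM.

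EpCAM, an adhesion glycoprotein of epithelia that is abundant in embryonic stem cells and stabilises claudins, was 2.23-fold lower. Epcam (ENSMUSG00000045394, chromosome 17, 87943407 to 87958557, plus strand) had 3190 reads in the Adriamycin library and 6981 in the untreated library, a log2 ratio of -1.16 (-1.22 to -1.10). Its level was 138 TPM in the Adriamycin library and 284 TPM in the untreated library. Ocln, which encodes the tight junction protein occludin, had 425 reads in the Adriamycin library and 272 in the untreated library (0.62, 0.39 to 0.84).

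The catenin genes among the members were within 2-fold. Ctnnd2, a catenin gene outside the member rule, was higher, with a log2 ratio of 1.74. Jup, which encodes plakoglobin of adherens junctions and desmosomes, had 13897 reads in the Adriamycin library and 13573 in the untreated library, a log2 ratio of 0.01 (-0.03 to 0.04) that was 0.15 under total counts and -0.12 under upper-quartile scaling. Ctnna1, encoding alpha-catenin, the link to actin, had 23387 reads in the Adriamycin library and 34597 in the untreated library (-0.59, -0.62 to -0.57). Ctnnd1, encoding p120-catenin, which keeps cadherins at the surface, had 1340 reads in the Adriamycin library and 1949 in the untreated library (-0.57, -0.67 to -0.47). Of the exonic bases of Ctnnd1, 61.2% also belong to Gm28635 on the same strand, and the header shows no option to count reads that fall on several genes. Its 17.3 TPM in the Adriamycin library and 23.8 TPM in the untreated library are therefore too low to be set beside other genes.

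The 4 repressors among the members had unequal levels and none was higher by the 2-fold rule, as the counts of the other members above show. Snai3, a Snail relative outside the member rule, was 5.35-fold higher. Its level was 136 TPM in the Adriamycin library and 23.5 TPM in the untreated library. Snai1, which encodes Snail, had 670 reads in the Adriamycin library and 469 in the untreated library (0.49, 0.31 to 0.66). Snai2, encoding Slug, had 59 reads in the Adriamycin library and 52 in the untreated library (0.15, -0.41 to 0.72), an interval that includes no difference. Zeb1 had 669 reads in the Adriamycin library and 1051 in the untreated library (-0.68, -0.82 to -0.54). Zeb2 was 3.46-fold lower on 20 reads in the Adriamycin library and 69 in the untreated library (-1.79, -2.61 to -1.08). Per length, Snai1 was the most abundant of the 4, at 39.1 TPM in the Adriamycin library and 25.9 TPM in the untreated library, and Zeb2 the least, at 0.0937 TPM in the Adriamycin library and 0.305 TPM in the untreated library.

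**Figure D5:**
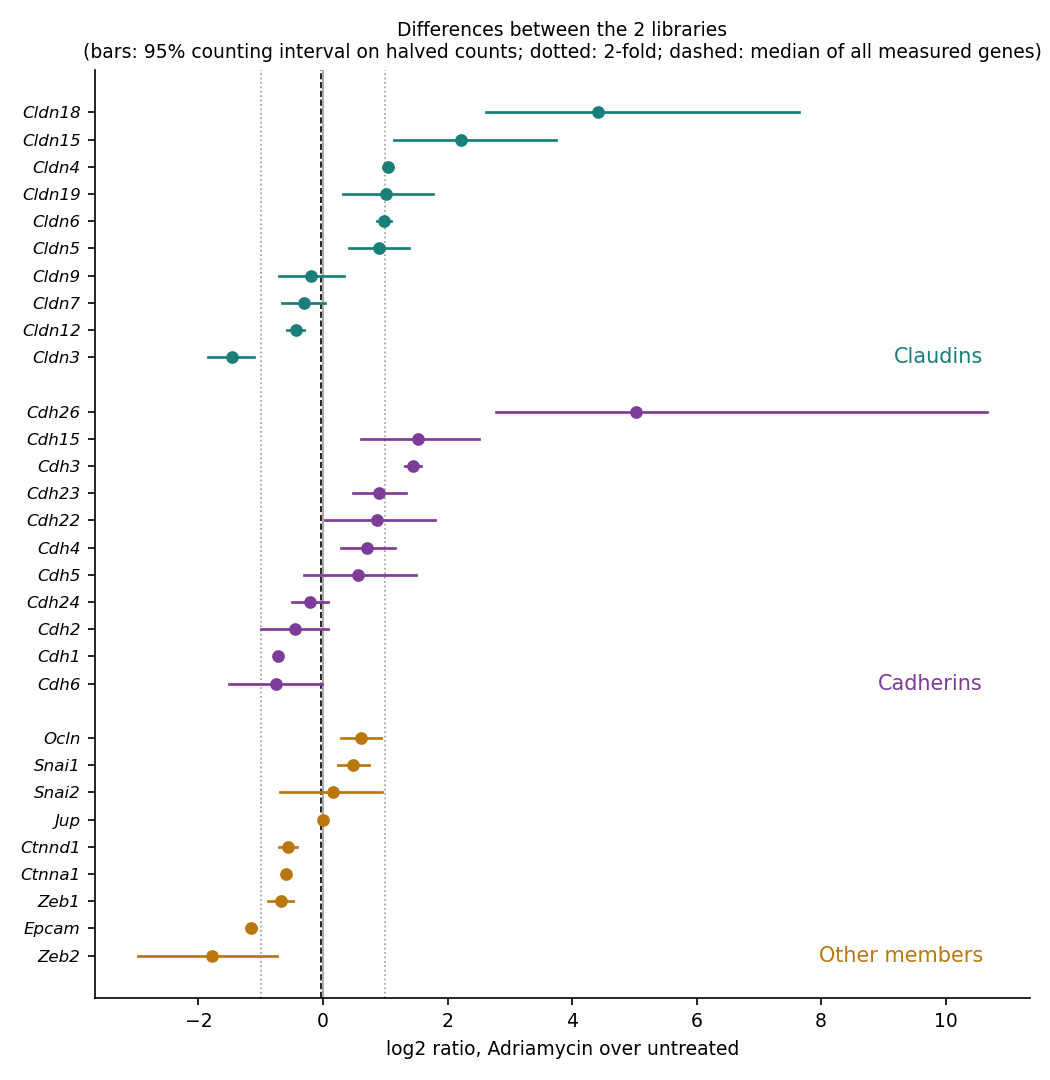
Log2 ratios of Adriamycin over untreated for the 30 measured members, grouped as claudins, cadherins and other members; bars are 95% counting intervals computed on counts divided by 2, dotted lines mark 2-fold and the dashed line the median of all measured genes (-0.03). The bars of Cldn18, Cldn15, Cdh26 and Cdh3 lie wholly above 2-fold higher and those of Cldn3 and Epcam wholly below 2-fold lower. Of these, Cldn18, Cldn15 and Cdh26 were measured only through the Adriamycin library, so their direction is partly set by the filter.

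The other 25 members were under 1 CPM, with at most 40 reads in the Adriamycin library and 18 in the untreated library, and took no part in the counts above. Of these, 10 had more CPM in the Adriamycin library, 10 had more in the untreated library and 5 had 0 reads in both (Cldn8, Cldn16, Cldn17, Cldn22 and Cldn24). Their limit was taken as 3 reads, equal to 0.0740 CPM for the Adriamycin library and 0.0754 CPM for the untreated library, for counting error only. Cldn10, which forms ion channels in kidney and glands, had 35 reads in the Adriamycin library and 0 in the untreated library. With that limit in place of the 0 reads it was 11.4-fold higher, which is not a lower bound. The lower end of its log2 interval was 3.14, or 2.02 on counts divided by 2. Cldn20 had 40 reads in the Adriamycin library and 18 in the untreated library. Cdh13, the membrane-anchored T-cadherin, had 17 reads in the Adriamycin library and 2 in the untreated library. With that limit in place of the 2 reads it was 5.56-fold higher, which again is not a lower bound. Its log2 ratio was 2.78 (0.98 to 6.22), with an interval of 0.07 to 8.44 on counts divided by 2. On the other side, Cdh9 had 0 reads in the Adriamycin library and 11 in the untreated library, 3.74-fold lower with that limit in place of the 0 reads. The upper end of its log2 interval was -1.36. On counts divided by 2 it was 0.10, so that interval includes no difference. All exonic bases of Cldn22 lie within exons of Wwc2 on the opposite strand, and with no option to count reads on several genes its 0 reads cannot be read as absence. At counts of 1 to 20 reads, 25 of the 33 member values were even, and 53.9% of such values over all genes were.

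Of the 10 called members, 3 share exonic bases with another gene, namely Cldn3 (40 bases with Wbscr25), Cldn19 (90 bases with Gm12927) and Zeb2 (653 bases with Zeb2os). Each of these partners had under 10 reads in both libraries. Claudin genes are short, with a median span of 3.15 kb over the measured ones, and measured cadherin genes had a median span of 66.9 kb. Over the 30 measured members, Spearman's rho between span and log2 ratio was -0.17. It was 0.52 over the 10 measured claudins, -0.22 over the 11 measured cadherins and 0.03 over all 14871 measured genes, where all points share the same 2 libraries.

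Partners of claudins at the tight junction were mostly within 2-fold. Of 26 genes for scaffolds, polarity proteins and junctional receptors, all measured, 1 was at least 2-fold higher and 1 lower, beside 17.0% and 6.95% of all measured genes. The median log2 ratio was -0.12, or 0.0212 under total counts. Pard6g, a polarity adaptor, was higher with 4019 reads in the Adriamycin library and 1233 in the untreated library (1.68, 1.58 to 1.77). Esam, an endothelial adhesion molecule, was lower with 93 reads in the Adriamycin library and 211 in the untreated library (-1.21, -1.58 to -0.85).

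Partners of cadherins at adherens junctions and desmosomes had calls in both directions. Of 22 measured genes 6 were higher and 5 were lower, and the median was -0.14. Ctnnb1, encoding beta-catenin, which binds the cadherin tail directly, had 43541 reads in the Adriamycin library and 46139 in the untreated library (log2 ratio -0.11, -0.13 to -0.09). The 6 higher and 5 lower genes of the list stand beside 17.0% higher and 6.95% lower among all measured genes, and the median was 0.0095 under total counts. Perp, a p53 target and desmosome component, had 7689 reads in the Adriamycin library and 841 in the untreated library (3.16, 3.06 to 3.27). Nectin4, an adhesion receptor of epithelia, had 2868 reads in the Adriamycin library and 151 in the untreated library (4.22, 3.98 to 4.47). The desmosomal cadherin gene Dsc3 had 163 reads in the Adriamycin library and 4 in the untreated library (5.16, 3.94 to 7.21), and the desmosomal plaque gene Pkp1 had 187 reads in the Adriamycin library and 7 in the untreated library (4.62, 3.64 to 6.05). The other 2 higher genes were Ctnnd2 (log2 ratio 1.74) and Pkp3 (1.06). The lower genes were the adhesion receptors Nectin2 (log2 ratio -1.40) and Nectin3 (-1.37), the desmosomal cadherin gene Dsg2 (-1.23), the actin-binding Lima1 (-1.19) and Afdn, whose product afadin binds nectins. Afdn had 5594 reads in the Adriamycin library and 11002 in the untreated library, just past 2-fold. Dsc3 and Pkp1, at 0.101 and 0.176 CPM in the untreated library, reached the mean of 1 CPM only through the Adriamycin library. Their direction is therefore partly set by the filter. Nectins were thus called in both directions. Desmosomal cadherins were too, but their higher call, Dsc3, is one of these filtered genes.

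Long and atypical cadherins, relatives outside the numbered series, had 8 higher and 1 lower of 14 measured, with a median log2 ratio of 1.15, beside 17.0% higher and 6.95% lower among all measured genes. The lower gene was Cdhr1, a photoreceptor cadherin, with 99 reads in the Adriamycin library and 213 in the untreated library (-1.13, -1.49 to -0.78). Celsr1, a planar polarity cadherin, had 11018 reads in the Adriamycin library and 2723 in the untreated library (1.99, 1.93 to 2.05), and Celsr2 had 1898 reads in the Adriamycin library and 509 in the untreated library (1.87, 1.73 to 2.01). Fat2, a giant cadherin, had 1747 reads in the Adriamycin library and 252 in the untreated library (2.76, 2.57 to 2.96). Cdhr2, a brush border protocadherin, had 371 reads in the Adriamycin library and 27 in the untreated library (3.73, 3.19 to 4.37). At 0.679 CPM in the untreated library, Cdhr2 was measured only through the Adriamycin library, so its direction is partly set by the filter.

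Genes of epithelial and mesenchymal state did not line up in a single direction. The epithelial list, which includes Cdh1 and Epcam, had 18 measured genes, 2 of them higher and 4 lower, and its median was -0.09, or 0.0531 under total counts. Among all measured genes 17.0% were higher and 6.95% lower, which is also the background of the mesenchymal list. St14, which encodes the membrane protease matriptase, had 17111 reads in the Adriamycin library and 3686 in the untreated library (2.19, 2.14 to 2.24), and the keratin gene Krt19 had 1884 reads in the Adriamycin library and 783 in the untreated library (1.24, 1.12 to 1.36). Esrp1, an epithelial splicing regulator, was 6.36-fold lower with 139 reads in the Adriamycin library and 870 in the untreated library. The other lower genes were Epcam, the protease gene Prss8 (log2 ratio -1.24) and the epithelial transcription factor gene Grhl2 (-1.20). The mesenchymal list, which includes Cdh2, had 8 measured genes, 3 of them higher and 1 lower, and its median was -0.51. Its higher genes were Snai3, a Snail relative (5.35-fold), the growth factor gene Tgfb2 (6.08-fold) and the matrix protease gene Mmp2 (2.75-fold). The lower gene was the growth factor gene Tgfb1 (3.50-fold lower). Tgfb2, at 0.553 CPM in the untreated library, was measured only through the Adriamycin library, so its direction is partly set by the filter. Prrx1 and S100a4 had 0 reads in both libraries. Markers listed for surface epithelium had 3 higher of 5 measured, beside 17.0% of all measured genes. They were the keratin genes Krt5, Krt14 and Krt19. Krt5 had 1199 reads in the Adriamycin library and 11 in the untreated library, and Krt14 had 70 reads in the Adriamycin library and 22 in the untreated library. Both Krt5 and Krt14 were under 1 CPM in the untreated library and were measured only through the Adriamycin library. The direction of both is therefore partly set by the filter. The list summed to 274 TPM in the Adriamycin library and 126 TPM in the untreated library. Trp63, a defining gene of basal epithelium, had 2 reads in the Adriamycin library and 4 in the untreated library. The part of such cells in the member values was not tested.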

How the data were processed

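RNA abundance was measured by RNA sequencing in 2 libraries, 1 per condition. Per the file headers, the authors counted paired-end reads with featureCounts 2.0.3 over exons of annotation release 105 on GRCm39, with the options -p and -B and none for strand or for reads on several genes. These deposited counts were not normalised. Per the submitters' processing notes, the tools were HISAT2 2.0.4, DESeq2 1.16.1, featureCounts 1.6.0, FastQC and Trim Galore 0.3.4, and the builds mm9 and mm10, which differs from the headers. Coordinates are those of the tables, in GRCm39. A supplied table of Ensembl identifiers and symbols named 52081 identifiers and left 3333 without a name.

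TMM factors (edgeR 4.0.16, R 4.3.3) were 1.05 for the Adriamycin library and 0.951 for the untreated library. CPM, TPM, log2 ratios (pseudocount 0.5 read) and exact 95% intervals (conditional binomial, Clopper-Pearson, or conditional odds ratio for gene pairs) were computed with Python 3.11.15 and scipy 1.17.1, also on counts divided by 2. The ratio code was tested on simulated data. Alternatives were total counts, upper-quartile and DESeq2 (1.42.0) median-of-ratios scaling, a pseudocount of 2, other levels and folds. Every member of at least 1 CPM is named, with up to 4 called genes per partner list. Members and lists were chosen with earlier results of these data known, and details of low members (Cldn10, Cldn20, Cdh9, Cdh13, Prrx1, S100a4, Trp63), of Ctnnb1 and Paqr4, and of further called genes of the partner lists after their values were seen.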

Additional observations from a re-analysis of the deposited data

How the results depend on the processing

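Scaling moved the median log2 ratio of all measured genes by 0.15 under total counts and by -0.12 under upper-quartile scaling. At least 2-fold higher were 11 members with total counts (5 cadherins, adding Cdh22 and Cdh23, and the claudins Cldn5 and Cldn6) and 4 with upper-quartile factors (2 claudins, without Cldn4 and Cldn19, and without Cdh26, which dropped under 1 CPM). Higher genes were 71.0% of all calls with TMM, 80.2% under total counts and 61.6% under upper-quartile scaling. Of the 30 measured members, Jup was the 1 whose sign changed with scaling. The median of the other members was -0.42 under total counts and -0.69 under upper-quartile scaling. With total counts the medians of tight junction partners (0.0212), adherens junction and desmosome partners (0.0095) and the epithelial list (0.0531) changed sign, and the long cadherins had a median of 1.34 with 0 lower. With upper-quartile factors adherens junction and desmosome partners had a median of -0.26 and the epithelial list -0.21, and 2 tight junction partners and 2 mesenchymal genes were lower. Median-of-ratios scaling and a pseudocount of 2 reads left 7 and 6 members higher and 3 lower each.

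At a mean of at least 5 CPM the medians of all members (-0.21) and of claudins (-0.31) changed sign, since the low members that were higher no longer counted. There 2 members were higher (1 claudin, 1 cadherin), 1 of the other members was lower, the adherens junction and desmosome median was -0.36, long cadherins had 5 higher and 0 lower, and 0 tight junction partners were lower. With every gene of at least 1 read, 15 members were higher and 8 lower (claudins 8 and 3, cadherins 7 and 3, cadherin median 0.15), and 16 long cadherins were higher. At 1.5-fold, 13 members were higher and 7 lower (cadherins 6 and 2, other members 1 and 4). At 3-fold, 3 were higher and 1 lower (claudins 2 and 0, cadherins 1 higher, other members 1 lower). With the interval on halved counts wholly past 2-fold, 4 were higher (2 claudins) and 2 lower, with 1 of the other members among the lower. Among those higher, Cldn15, Cldn18 and Cdh26 were measured only through the Adriamycin library, which this interval does not correct. By CPM with no length, Cldn4 ranked 4 among members in the Adriamycin library and 5 in the untreated library, and Ctnna1 ranked 1 in both. No paired analysis was possible because each condition has 1 library. Low members rest on few reads, which limits their ratios.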
